A study of Mus musculus with 35 samples.

Results

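The 8 genes described here encode proteins that neutrophils carry in their granules or cytosol: the alarmins S100a8 and S100a9, the secondary granule proteins Lcn2, Camp, Ngp and Ltf, and the primary granule enzymes Elane and Mpo. They were chosen by name, not by a measured value, out of 22830 named genes in each of the count tables. Earlier results of these data were known when they were chosen. Each of the 8 symbols had 1 row per table, so every member was found. RNA was sequenced from 35 wounds of mouse dorsal skin in 8 groups. Full-thickness excisional wounds were made in C57BL/6 mice, adult males and females, and the tissue came from the middle of the wound.

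All animals carried floxed Col5a1 (Col5a1 fl/fl) and all received tamoxifen. In Col5a1CKO mice the tamoxifen-inducible Cre Col1a2-CreERT, which is active in fibroblasts, deletes Col5a1, whereas the controls, called WT, were Cre-negative littermates. The first table held 14 wounds at day 14 without added fibroblasts (7 per genotype), 3 Col5a1CKO wounds at day 14 injected with WT fibroblasts (called injected wounds here), and 6 wounds at day 19 (3 per genotype). The labels name no vehicle for the 14, while the study describes day 14 animals without fibroblasts as given vehicle (PBS). The second held 4 WT wounds with vehicle, 4 Col5a1CKO wounds with vehicle and 4 Col5a1CKO wounds with cilengitide, a blocker of αv integrins, all taken as day 14, although the labels of the cilengitide wounds state no day. For the day 19 Col5a1CKO wounds the treatment label names WT fibroblasts while the titles place those cells at day 14. The titles were followed. Samples are listed separately, but nothing in the labels ties each to its own animal. The study's methods describe the n of each experiment as separate biological replicates. The p-values measure the spread between these samples.

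Neutrophils fill their granules in waves as they mature in the bone marrow. Primary (azurophil) granules, with the serine protease neutrophil elastase (Elane) and the hypochlorite-forming enzyme myeloperoxidase (Mpo), are filled in promyelocytes. Secondary granules, with lactoferrin (Ltf), cathelicidin (Camp), neutrophilic granule protein (Ngp) and the siderophore-binding lipocalin-2 (Lcn2), are filled later. The calcium-binding proteins S100a8 and S100a9 pair into calprotectin, which fills the cytosol of mature neutrophils and acts as an alarmin through receptors such as TLR4. Activated keratinocytes and macrophages can also transcribe S100a8, S100a9 and Lcn2, so these members are less restricted to neutrophils than the others. In whole wound tissue, more cells of a type and more RNA per cell cannot be told apart.

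In NCBI37, the build of the first table, 5 members lay close to another. S100a8 (chr3:90472993-90473956, plus strand) and S100a9 (chr3:90496554-90499643, minus strand) were separated by 22597 bases. Camp (chr9:109749889-109751970, minus), Ngp (chr9:110322254-110325514, plus) and Ltf (chr9:110921796-110945270, plus) shared chromosome 9, with 570283 bases between Camp and Ngp and 1169825 between Camp and Ltf. Lcn2 was at chr2:32240153-32243317 (minus), Elane at chr10:79349057-79350961 (plus) and Mpo at chr11:87607083-87617915 (plus).

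The sequences before the starts of Ngp, Ltf and Lcn2 are shown because these were the 3 members called higher in Col5a1CKO wounds at day 14. Each is the 250 bases upstream of the RefSeq start in GRCm38.p6, read 5′ to 3′ along the gene (Ngp chr9:110419558-110419807, Ltf chr9:111019042-111019291, both plus strand, and Lcn2 chr2:32387740-32387989, minus strand). Capitals mark TTGCNNAA or its reverse complement TTNNGCAA, letters of the C/EBP type, the binding motif of a transcription factor family that acts in granulocyte development.
Ngp: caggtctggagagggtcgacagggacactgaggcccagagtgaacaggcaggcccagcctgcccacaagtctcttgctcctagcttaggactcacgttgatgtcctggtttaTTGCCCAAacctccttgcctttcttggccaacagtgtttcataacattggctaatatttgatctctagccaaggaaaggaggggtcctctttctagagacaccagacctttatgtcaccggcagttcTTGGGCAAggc
Ltf: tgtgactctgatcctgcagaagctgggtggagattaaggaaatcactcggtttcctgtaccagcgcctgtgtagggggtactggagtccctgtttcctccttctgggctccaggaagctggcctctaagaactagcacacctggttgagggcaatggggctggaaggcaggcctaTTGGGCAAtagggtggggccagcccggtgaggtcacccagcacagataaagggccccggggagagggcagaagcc
Lcn2: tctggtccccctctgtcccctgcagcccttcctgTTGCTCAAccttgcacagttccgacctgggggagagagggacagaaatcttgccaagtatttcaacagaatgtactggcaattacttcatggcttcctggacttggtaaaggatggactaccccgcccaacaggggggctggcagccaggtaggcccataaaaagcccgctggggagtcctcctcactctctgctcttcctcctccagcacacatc
Ngp held a match 138 and another 11 bases before its start, Ltf 75 and Lcn2 216 bases before. S100a9 also had 1, at 236 bases, whereas no match lay in these windows of S100a8, Camp, Elane or Mpo. Thus 4 of 8 members had the letters, beside 9.55% of 27025 promoters of this length. A match describes letters only.

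A value in CPM below is the count of a gene per 1000000 counts of the library, with TMM scaling (trimmed mean of M values) over all wounds of its table. A gene is called when edgeR's quasi-likelihood test gave a Benjamini-Hochberg adjusted p under 0.05 over all genes tested and a fitted difference of at least 2-fold. Overlap of wound ranges between groups was not counted over all genes, so no such share stands beside it. Depth ran from 15043531 to 35700325 counts in named genes over the 23 wounds of the first table and from 51211600 to 68266760 over the 12 wounds of the second. The first table split into 2 library sets by the level of GC-rich against GC-poor genes: a lower set of 9 (WT a to d and Col5a1CKO a to e at day 14) and an upper set of 14 (all others). Col5a1 itself ranged from 347 to 2386 CPM in WT (median 846) and from 170.0 to 663 in Col5a1CKO wounds (median 368) at day 14, and the ranges overlapped. Its log2 difference was -1.43 ± 0.49 (SE, adjusted p = 0.0757), with -1.69 at day 19 (adjusted p = 0.272) and -1.17 with vehicle (adjusted p = 0.232). Fitted within the library sets at day 14, it was -1.87 in the lower set (adjusted p = 0.027). In the upper set it was -0.23 (adjusted p = 0.524).

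Per length of transcript, the alarmins far exceeded the granule genes. In the 7 Col5a1CKO wounds at day 14 the median level was 5347 RPKM (reads per kilobase, scaled to library size) for S100a9 and 3645 RPKM for S100a8. Lcn2 followed at 244 RPKM, Ngp at 13.5 RPKM, Camp at 5.01 RPKM and Ltf at 4.78 RPKM. Mpo was at 0.315 RPKM and Elane at 0.0815 RPKM. Neighbours in this order overlapped across wounds, S100a9 (1358 to 15010 RPKM) with S100a8 (1088 to 13030), Ngp (0.259 to 90.5) with Camp (0 to 46.0), and Camp with Ltf (0.178 to 20.6). Lcn2, from 15.7 to 688 RPKM, lay entirely below both alarmins, while its range met that of Ngp.

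To ask what loss of Col5a1 in fibroblasts changed, Col5a1CKO and WT wounds were compared at day 14. Of the 7 members tested, 3 were called, Lcn2, Ngp and Ltf, all higher in Col5a1CKO, beside 5.57% of 14367 genes called higher. The other 4 tested members also had positive log2 differences but missed the threshold, and Elane had too few counts for the test.

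**Figure D1:**
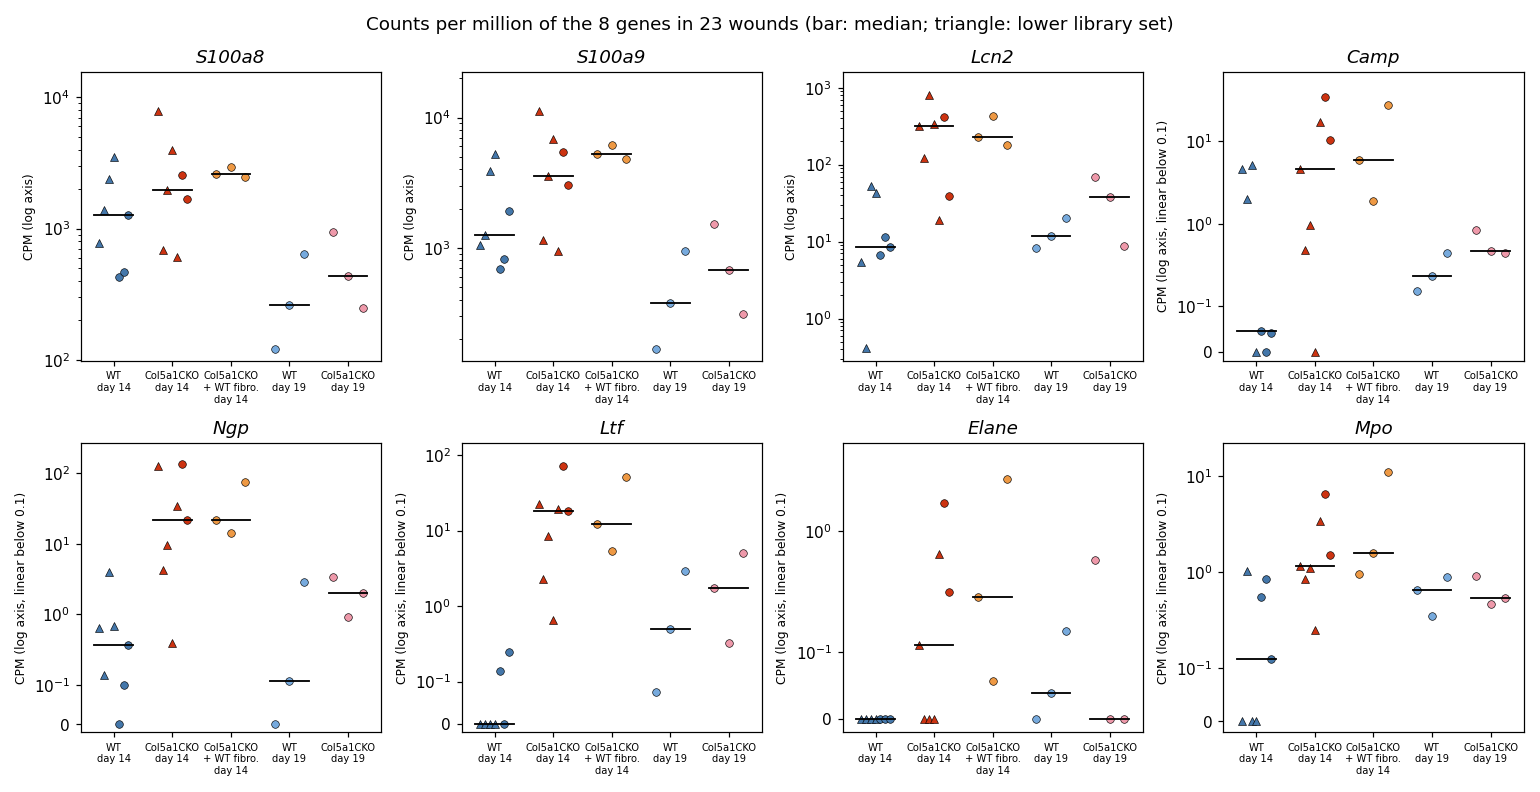
CPM of each of the 8 genes in the 23 wounds of the first table, 1 point per wound and 1 panel per gene, with bars at group medians and triangles for the lower library set. The y axes are logarithmic (linear below 0.1 where a wound is at 0). Ltf of Col5a1CKO wounds at day 14 (0.648 to 71.7 CPM) lay above all WT wounds at day 14 (0 to 0.247 CPM), whereas the S100a8 and S100a9 points of both groups overlap.

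Ltf, the iron-chelating lactoferrin, was at 0 counts in 5 of 7 WT wounds, and the highest WT wound had 0.247 CPM. In Col5a1CKO wounds it ranged from 0.648 to 71.7 CPM with a median of 18.1. The groups did not overlap, and every Col5a1CKO wound was above every WT wound. The log2 difference was 8.28 ± 1.24 (SE, adjusted p = 0.00369), and the WT level rested on 9 counts in 2 wounds. Within the lower library set all 4 WT wounds were at 0, which puts the 5 Col5a1CKO wounds at least 206-fold higher against a floor of 3 counts over the group.

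Ngp, a cystatin-like protein of secondary granules, ranged from 0 to 4.002 CPM in WT (median 0.370) and from 0.399 to 133 in Col5a1CKO wounds (median 21.7). The ranges overlapped through Col5a1CKO wound d alone, at 0.399, below WT wounds a (0.643), c (4.002) and d (0.685). The other Col5a1CKO wounds, from 4.23 CPM up, were above every WT wound. The log2 difference was 5.84 ± 1.33 (adjusted p = 0.0149). Lcn2, an iron-scavenging antimicrobial, ranged from 0.413 to 52.8 CPM in WT (median 8.60) and from 19.2 to 803 in Col5a1CKO wounds (median 319). Here 2 Col5a1CKO wounds, e at 19.2 and g at 39.4 CPM, fell within the WT range. The log2 difference was 4.02 ± 0.98 (adjusted p = 0.0202).

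Camp, the precursor of the antimicrobial peptide CRAMP, split by library set. It ranged from 0 to 5.09 CPM in WT (median 0.0458) and from 0 to 35.0 in Col5a1CKO wounds (median 4.59), a log2 difference of 2.55 ± 1.48 (adjusted p = 0.280). Among upper-set wounds, Camp was at 0 to 0.0458 CPM in WT (3 wounds) against 10.4 and 35.0 in Col5a1CKO (2 wounds). There the groups stood apart (log2 difference 9.60, adjusted p = 0.0370), whereas in the lower set they overlapped (0.64, adjusted p = 0.842).

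The primary granule genes were scarce. Elane was at 0 in all 7 WT wounds and had counts in 4 of 7 Col5a1CKO wounds, up to 1.71 CPM. Against the floor over the group this is at least 24.1-fold higher, without a test. Wound f held 55 of the group's 80 counts, and without it the bound was 9.09-fold. Mpo ranged from 0 to 1.03 CPM in WT (median 0.124) and from 0.249 to 6.46 in Col5a1CKO wounds (median 1.15), with overlap. Its log2 difference was 2.53 ± 1.07 (adjusted p = 0.141).

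The alarmins were abundant in both genotypes. S100a8 ranged from 429.8 to 3508 CPM in WT (median 1274) and from 613 to 7819 in Col5a1CKO wounds (median 1953). S100a9 ranged from 692 to 5254 in WT (median 1260) and from 952 to 11210 in Col5a1CKO wounds (median 3566). Both pairs of ranges overlapped over most of their length. The log2 differences were 0.93 ± 0.61 (adjusted p = 0.345) for S100a8 and 1.12 ± 0.61 (adjusted p = 0.249) for S100a9.

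Both library sets were also fitted alone, and the calls differed between them. In the lower set Ltf alone was called (log2 difference 10.62, adjusted p = 0.0176), with Ngp at 4.65 (adjusted p = 0.127) and Lcn2 at 3.67 (adjusted p = 0.158). In the upper set Camp, Ngp and Ltf were called, with Lcn2 at 4.79 (adjusted p = 0.0557). With the set as a covariate Lcn2, Ngp and Ltf were called. How many of all genes were called was not counted in the fits within a set or with this covariate. The member counts of these fits therefore have no share beside them.

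**Figure D2:**
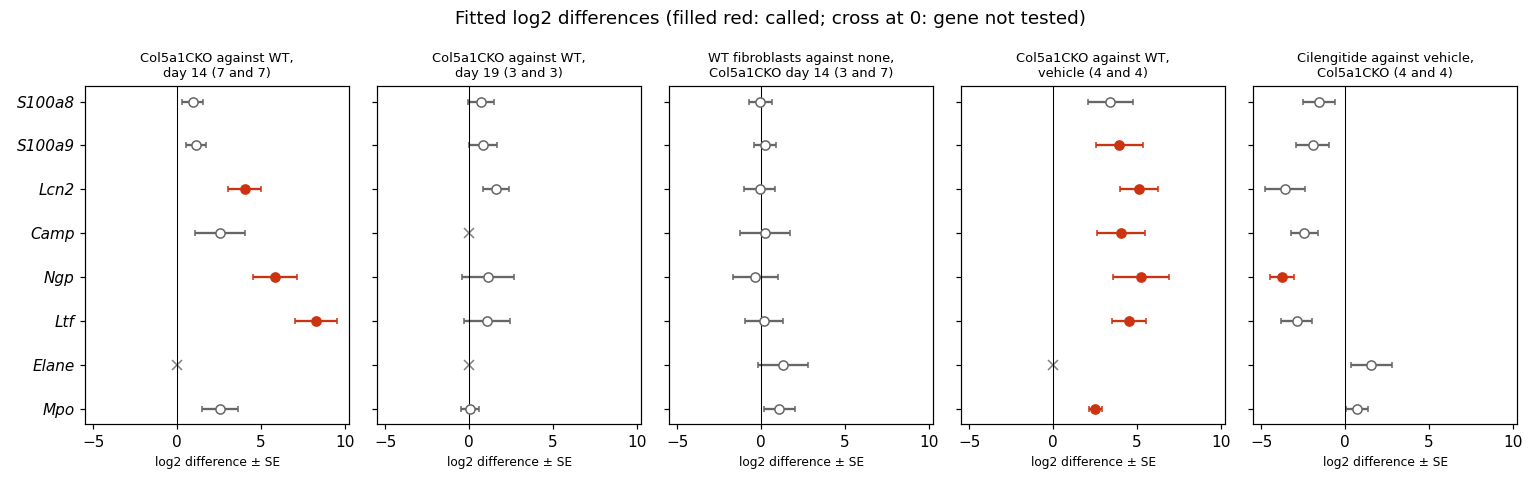
Fitted log2 differences ± SE of the 8 genes in 5 comparisons, with the number of wounds per group in brackets. Filled red points were called and open points were not. A cross at 0 marks a gene that was not tested. At day 14 the filled points are Lcn2, Ngp and Ltf, and in the vehicle comparison every tested gene but S100a8.

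The other genes of the granules and of neutrophils are described from lists, with the 8 members left out. The lists share some genes, among them Csf3r, Cxcr2, Mmp8 and Slpi, so their counts are not separate. Of 14 other secondary and tertiary granule genes, 11 were called higher in Col5a1CKO wounds at day 14 and 0 lower, with a median log2 difference of 2.54 beside -0.03 over all genes. They included haptoglobin (Hp, 5.35 ± 0.73, adjusted p = 0.00280), the collagenase Mmp8 (5.03 ± 1.04, adjusted p = 0.0103) and both chains of the integrin Mac-1, Itgam (2.55 ± 0.43, adjusted p = 0.00515) and Itgb2 (1.92 ± 0.40, adjusted p = 0.0104). Within the library sets 4 of 14 (lower) and 7 of 14 (upper) were called. Of other primary granule genes 0 of 3 tested were called by edgeR.

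Among 24 genes of the neutrophil surface and maturation, 2 were called higher at day 14, the G-CSF receptor Csf3r (3.50 ± 0.66, adjusted p = 0.00693) and the chemokine receptor Cxcr2 (2.21 ± 0.50, adjusted p = 0.0147). None was called lower, 18 of 24 were positive and the list's median log2 difference was 2.17. Stfa1, Stfa2, Stfa3, BC100530, Asprv1 and 1100001G20Rik were negative in both library sets. The list's summed level was lower in Col5a1CKO wounds, at 877 to 10440 CPM (median 6109) beside 8497 to 23290 (median 16390) in WT. Of 8 tested regulators of granulocyte production, 4 were higher: Csf3r, the cytokine G-CSF (Csf3, 4.75 ± 1.29, adjusted p = 0.0310), interleukin-17A (Il17a, 4.88 ± 1.33, adjusted p = 0.0312) and PU.1 (row Sfpi1, 1.92 ± 0.51, adjusted p = 0.0280). Of 9 receptors and partners of the alarmins, 0 were called (median 0.58). Of 15 tested epidermal antimicrobial and alarmin genes, 0 were higher and 1 lower, S100a3 (-6.26 ± 1.33, adjusted p = 0.0112), a calcium-binding protein of the hair cuticle.

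Markers of other cell types moved with the genotype at day 14. Of 10 keratinocyte markers 0 were called, yet their summed level was 43790 to 165500 CPM in WT and 46.4 to 83190 (median 1365) in Col5a1CKO wounds, with none of the 10 at 0 in any wound. Of 6 erythroid markers 5 were called higher. In the lower library set alone 5 were called, and in the upper set 0, although the log2 differences of Hba-a1 (2.35 lower, 3.22 upper, adjusted p = 0.0353 and 0.0599) and Hbb-b1 (2.50 and 3.43, adjusted p = 0.0129 and 0.0641) were not smaller there. That of Slc4a1 was 7.58 in the lower set and 0.80 in the upper (adjusted p = 0.0314 and 0.549). Their sum was 23.7 to 186 CPM in WT and 182 to 1136 in Col5a1CKO wounds, and up to 2 of the 6 were at 0 in a WT wound. Hba-a1 and Hba-a2 share identical values here, as do Hbb-b1 and Hbb-b2, so these are not separate measurements. Of 5 neutrophil markers outside the members, 3 were called higher (Csf3r, Mmp8, Cxcr2), with sums of 26.5 to 204.5 CPM in WT and 157 to 2323 in Col5a1CKO wounds. These 5 also belong to the granule or surface lists above, so their calls are not additional ones. Macrophage markers were called higher in 4 of 8 (Csf1r, Ccr2, Cd68, Ly6c2), T cell markers in 1 of 3 (Cd4), fibroblast markers in 1 of 5 (Pdgfra), and skeletal muscle and mast cell markers in 0 of 4 each. The library sets differed. In the lower set macrophage markers were called in 2 of 8 and fibroblast markers in 1 of 5. Neutrophil, T cell and mast cell markers were called there in 0. In the upper set macrophage markers were called in 7 of 8, fibroblast markers in 3 of 5 and mast cell markers in 2 of 4. Neutrophil markers were called there in 2 of 5 and T cell markers in 1 of 3. Mast cell log2 differences were positive in 0 of 4 (lower) and 4 of 4 (upper). What part these cell types have in the members' differences was not tested.

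**Figure D3:**
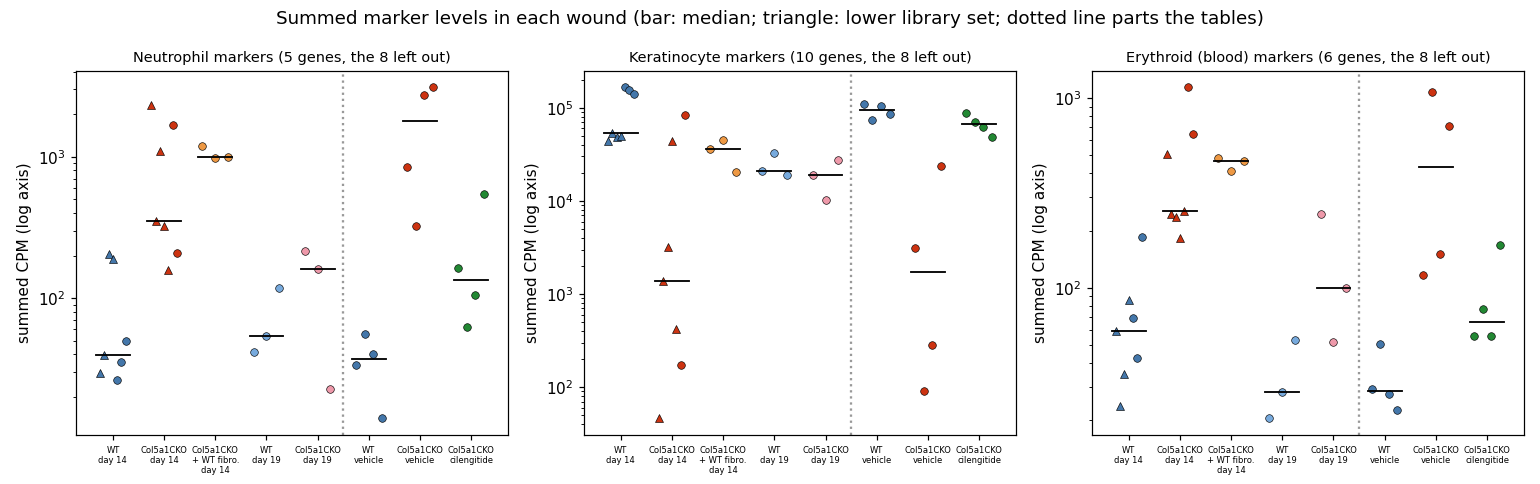
Summed CPM of 5 neutrophil, 10 keratinocyte and 6 erythroid markers in each wound (log axis, 1 point per wound, bars at medians, triangles for the lower library set). The dotted line parts the tables, whose levels were scaled separately. Keratinocyte sums of Col5a1CKO wounds at day 14 reach down to 46.4 CPM and with vehicle to 90.6 CPM, below every other group.

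WT fibroblasts were injected into Col5a1CKO wounds to ask whether they changed the wound, and no difference of the members was detected at day 14. Against Col5a1CKO wounds without added cells edgeR called 0 of 8, beside 0% of 15659 genes called higher. At an unadjusted p under 0.05 and at least 2-fold there were 0, beside 37 of all genes higher and 854 lower. DESeq2 called 0, beside 9 genes higher and 10 lower. The log2 differences ran from -0.35 ± 1.34 (Ngp) to 1.31 ± 1.48 (Elane), so the errors leave room for differences of several fold. Their directions also changed with the library set or with single wounds for all members but S100a9.

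In injected wounds a, b and c, Ltf was at 12.1, 5.42 and 51.5 CPM and Ngp at 22.1, 14.0 and 75.1 CPM. Lcn2 was at 231, 432 and 180 CPM. All 3 wounds were above every WT wound at day 14 for these genes. Against WT the log2 differences were 8.59 ± 1.21 for Ltf (adjusted p = 0.00261), 5.61 ± 1.19 for Ngp (adjusted p = 0.0175) and 4.07 ± 0.94 for Lcn2 (adjusted p = 0.0260). These were the 3 of 7 tested members called, beside 3.77% of 15317 genes called higher. In the same comparison neutrophil markers were called higher in 3 of 5, macrophage markers in 3 of 8, erythroid markers in 4 of 6 and T cell markers in 1 of 3, and what these cell types contributed was not tested. Summed over each list, neutrophil markers were at 985 to 1198 CPM in injected wounds and 26.5 to 204.5 in WT wounds, macrophage markers at 1277 to 1568 and 292 to 995, and erythroid markers at 414 to 482 and 23.7 to 186. Keratinocyte markers, 0 of 10 called, were at 20330 to 44960 CPM in injected and 43790 to 165500 in WT wounds.

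Camp was at 5.93, 1.86 and 27.3 CPM and Mpo at 0.952, 1.56 and 10.95 CPM in the same wounds. Elane was at 0.286, 0.0556 and 2.71 CPM, at least 55.5-fold higher than the WT floor, or 8.54-fold without wound c. Wound c was the highest in each of these, and Camp and Mpo overlapped with WT. S100a8 was at 2629, 2952 and 2494 CPM and S100a9 at 5271, 6176 and 4775 CPM, which are within the range of Col5a1CKO wounds without added cells. All injected wounds belonged to the upper library set, and against its 3 WT wounds 6 members were called, S100a8 (2.03, adjusted p = 0.00940), S100a9 and Camp added. With the replicate letter as a block, 2 were called, Ngp and Ltf, and the same wounds without the block also gave 2. Without injected wound c, Ltf alone was called. How many of all genes were called was not counted in the upper-set fit, with the block or without wound c. These member counts therefore have no share beside them.

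At day 19 no member was called between genotypes. In WT wounds a, b and c Ltf was at 0.0757, 0.499 and 2.90 CPM, and in Col5a1CKO wounds at 1.74, 0.321 and 4.99. Ngp was at 0, 0.115 and 2.85 CPM in WT and at 3.44, 0.918 and 1.99 in Col5a1CKO wounds. The groups overlapped in both. Lcn2 was at 8.14, 11.8 and 20.4 CPM in WT and at 69.9, 37.8 and 8.72 in Col5a1CKO wounds. Wound c of Col5a1CKO was at the WT level of Lcn2 and the other 2 above it (log2 difference 1.60 ± 0.77, adjusted p = 0.253).

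S100a8 was at 121, 262 and 639 CPM in WT and at 944, 435 and 249.9 in Col5a1CKO wounds. S100a9 was at 167, 374 and 944 CPM in WT and at 1526, 669 and 309.6 in Col5a1CKO wounds. Both overlapped, with the highest wound in Col5a1CKO. Camp stayed between 0.151 and 0.846 CPM, Mpo between 0.346 and 0.899 and Elane between 0 and 0.581 over the 6 wounds. By edgeR 0 of 6 tested members were called, beside 0.0198% of 15135 genes called higher. At an unadjusted p under 0.05 and at least 2-fold there were 0, beside 815 of all genes higher. DESeq2 called 0, beside 684 of 15135 genes higher. The keratinocyte sums also overlapped at day 19, at 19110 to 32890 CPM in WT and 10100 to 27670 in Col5a1CKO wounds. In the lists of other granule, neutrophil and regulator genes 0 were called between genotypes at this day.

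From day 14 to day 19, all 8 members had negative log2 differences in Col5a1CKO wounds. The largest were Ngp at -4.49 ± 1.68 (adjusted p = 0.121) and Camp at -4.10 ± 1.83 (adjusted p = 0.184), while S100a9 was at -2.48 ± 0.86 (adjusted p = 0.0963) and S100a8 at -2.36 ± 0.86 (adjusted p = 0.109). By edgeR 0 of 8 were called, beside 3.85% of 15327 genes called lower. At an unadjusted p under 0.05 and at least 2-fold there were 5, beside 1413 of all genes lower. DESeq2 called 6 (all but Elane and Mpo), beside 1149 of 15327 genes lower. In WT wounds 4 of 6 tested members had negative differences, with S100a8 and S100a9 both at -2.07 (adjusted p = 0.147 and 0.157). There 0 were called by edgeR, beside 4.25% of 15180 genes called lower. At an unadjusted p under 0.05 and at least 2-fold there were 2, beside 1742 of all genes lower. DESeq2 called 2, S100a8 and S100a9, beside 1316 of 15180 genes lower. Both comparisons set 3 upper-set wounds against groups of 7 that mix both sets.

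The test of whether the genotype difference itself changed between days called 0 of 8 members by edgeR, beside 0% of 15954 genes in either direction. At an unadjusted p under 0.05 there were 2, Ltf at -7.23 ± 2.00 (adjusted p = 0.583) and Ngp at -4.71 ± 2.20 (adjusted p = 0.834). Over all genes 280 were higher and 436 lower at that p and at least 2-fold. DESeq2 called 1, Ltf, beside 24 genes higher and 16 lower. A call at day 14 and none at day 19 is therefore not shown to be a difference between the days.

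The vehicle-treated wounds of the cilengitide experiment form another set of wounds of both genotypes at day 14, sequenced more deeply. Here 6 of 7 tested members were called higher in Col5a1CKO than in WT wounds, beside 17.5% of 15434 genes called higher. The exception was S100a8, and Elane was not tested. Since the background was high and 3 or 4 members kept the call when some single wounds were left out, each gene is given with its wounds.

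**Figure D4:**
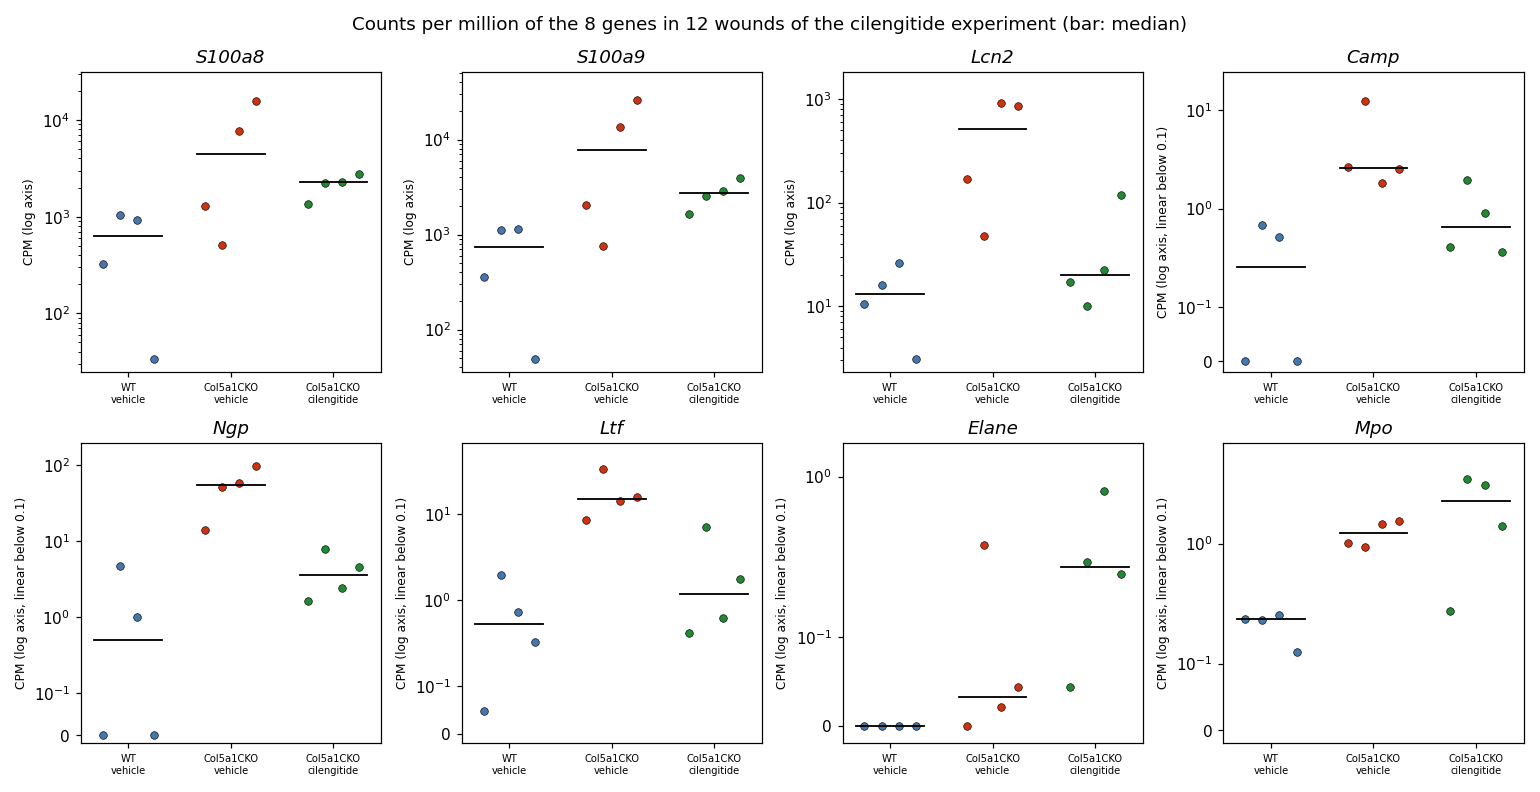
CPM of each of the 8 genes in the 12 wounds of the cilengitide experiment, 1 point per wound, with bars at group medians. The y axes are logarithmic (linear below 0.1 where marked). Lcn2, Camp, Ngp, Ltf and Mpo of Col5a1CKO wounds with vehicle lie above all WT wounds, and Ngp and Ltf of cilengitide wounds lie below all Col5a1CKO wounds with vehicle.

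In WT wounds 1 to 4 Ltf was at 0.0471, 1.98, 0.729 and 0.322 CPM, and in Col5a1CKO wounds with vehicle at 8.48, 33.3, 14.0 and 15.8. Ngp was at 0, 4.67, 0.984 and 0 CPM in WT and at 13.7, 51.5, 57.1 and 96.5 in Col5a1CKO wounds. Neither gene overlapped between genotypes. The log2 differences were 4.53 ± 1.01 for Ltf (adjusted p = 0.00838) and 5.25 ± 1.68 for Ngp (adjusted p = 0.0335).

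Lcn2 was at 10.4, 15.9, 26.3 and 3.07 CPM in WT and at 167, 47.5, 911 and 858 in Col5a1CKO wounds with vehicle. Camp was at 0, 0.678, 0.510 and 0 CPM in WT and at 2.66, 12.3, 1.83 and 2.52 in Col5a1CKO wounds. All Col5a1CKO wounds were again above all WT wounds. The log2 differences were 5.14 ± 1.12 for Lcn2 (adjusted p = 0.00768) and 4.02 ± 1.43 for Camp (adjusted p = 0.0484).

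Mpo was at 0.235, 0.232, 0.255 and 0.125 CPM in WT and at 1.01, 0.939, 1.44 and 1.56 in Col5a1CKO wounds with vehicle. This was the smallest log2 difference of the called members and the one with the smallest error, 2.52 ± 0.37 (adjusted p = 0.00177), without overlap. Elane was at 0 in all 4 WT wounds and at 0, 0.373, 0.0215 and 0.0438 CPM in Col5a1CKO wounds. The group was at least 9.84-fold above the floor, with no test, but wound 2 held 27 of its 30 counts, and without it the group was at the floor.

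S100a8 was at 321, 1029, 932 and 33.5 CPM in WT and at 1304, 505, 7673 and 15710 in Col5a1CKO wounds with vehicle. S100a9 was at 354, 1127, 1139 and 48.7 CPM in WT and at 2067, 753, 13400 and 25760 in Col5a1CKO wounds. Col5a1CKO wounds 3 and 4 were far above all others, WT wound 4 far below, and Col5a1CKO wound 2 fell within the WT range. The log2 difference was 3.42 ± 1.34 for S100a8 (adjusted p = 0.0670) and 3.95 ± 1.38 for S100a9 (adjusted p = 0.0460). Without Col5a1CKO wound 3 or 4, or without WT wound 3 or 4, Lcn2, Ltf and Mpo remained called and the others not. Without WT wound 1 or 2, Ngp was called as well.

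The lists were called more widely here too. Of 14 other secondary and tertiary granule genes 13 were higher (Hp 7.91 ± 0.74, adjusted p = 0.000566, and Mmp8 7.55 ± 0.97, adjusted p = 0.00123), with a median log2 difference of 4.84 beside 0.02 over all genes. Of 4 other primary granule genes 2 were higher, lysozyme (Lyz2, 2.63 ± 0.46, adjusted p = 0.00314) and Cd63 (1.66 ± 0.32, adjusted p = 0.00470), both also made by macrophages. Of 24 neutrophil surface and maturation genes 17 were higher, among them the formyl peptide receptor Fpr2 (7.23 ± 1.07, adjusted p = 0.00180), and 1 was lower. Of 11 regulators 9 were higher, Sfpi1 (3.26 ± 0.46, adjusted p = 0.00153) and Cebpd (2.05 ± 0.25, adjusted p = 0.00105) among them, and 1 lower, Cebpa (-2.83 ± 0.33, adjusted p = 0.000905).

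Of 9 alarmin receptors and partners 5 were higher, among them Tlr4 (3.71 ± 0.50, adjusted p = 0.00138) and its co-receptor Cd14 (6.92 ± 1.28, adjusted p = 0.00403). Of 16 epidermal antimicrobial and alarmin genes 3 were higher, S100a4 (2.35 ± 0.41), Slpi (5.16 ± 1.33) and S100a6 (1.16 ± 0.36), and S100a3 was lower (-8.42 ± 1.77, adjusted p = 0.00666). Other cell types moved as well. Neutrophil markers were called higher in 5 of 5, macrophage markers in 8 of 8, erythroid markers in 5 of 6 and fibroblast markers in 2 of 5, T cell markers in 1 of 3 with 1 lower, and keratinocyte markers lower in 3 of 10 (Krt10, Krt1, Krt5). Keratinocyte sums were 74490 to 110900 CPM in WT and 90.6 to 23490 in Col5a1CKO wounds with vehicle, and erythroid sums 22.7 to 50.3 and 117 to 1075 CPM. Their part in the members' differences was not tested.

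Col5a1CKO wounds with cilengitide were compared with Col5a1CKO wounds with vehicle to ask what the integrin blocker changed. Of 8 members 1 was called lower, Ngp, beside 6.59% of 15563 genes called lower. The vehicle wounds are the same as in the comparison of genotypes above, so the 2 comparisons are not independent.

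With cilengitide Ngp was at 1.61, 7.89, 2.43 and 4.57 CPM in wounds 1 to 4, all below the vehicle wounds (log2 difference -3.75 ± 0.72, adjusted p = 0.0121). Ltf was at 0.416, 7.03, 0.618 and 1.74 CPM, again without overlap (-2.88 ± 0.93, adjusted p = 0.0572). Lcn2 was at 17.2, 10.1, 22.6 and 118 CPM, where wound 4 entered the vehicle range (-3.58 ± 1.17, adjusted p = 0.0589). Camp was at 0.401, 1.94, 0.903 and 0.362 CPM, where wound 2 entered it (-2.43 ± 0.81, adjusted p = 0.0627). DESeq2 called these 4 genes, beside 1475 of 15563 genes called lower by it. A fit of all 3 groups together called Lcn2 alone.

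S100a8 was at 1364, 2222, 2291 and 2781 CPM with cilengitide and S100a9 at 1663, 2574, 2870 and 3980. The cilengitide wounds were close to each other and inside the wide range of the vehicle wounds. The log2 differences were -1.56 ± 0.95 (adjusted p = 0.253) and -1.94 ± 0.9995 (adjusted p = 0.182). Mpo was at 0.272, 3.44, 3.11 and 1.41 CPM and Elane at 0.0430, 0.294, 0.808 and 0.247, with counts in every cilengitide wound. Both overlapped with vehicle, with log2 differences of 0.72 ± 0.67 for Mpo (adjusted p = 0.449) and 1.56 ± 1.21 for Elane (adjusted p = 0.368).

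Of the other secondary and tertiary granule genes 9 of 14 were called lower with cilengitide, with a median log2 difference of -2.63 beside -0.06 over all genes. Neutrophil surface genes were lower in 4 of 24, regulators in 6 of 11 with Cebpa higher, alarmin receptors in 3 of 9 and other primary granule genes in 1 of 6. Epidermal antimicrobial genes had 1 higher and 1 lower of 16. Keratinocyte markers were higher in 2 of 10, with sums of 48680 to 87590 CPM, none overlapping the vehicle wounds. Macrophage markers were lower in 4 of 8, erythroid markers in 3 of 6 (sums 55.5 to 168 CPM) and neutrophil markers in 2 of 5 (62.7 to 544 CPM), and what these cell types contributed was not tested.

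Set against WT wounds with vehicle, the same Col5a1CKO wounds with cilengitide had 1 of 7 tested members called, Mpo at 3.27 ± 0.73 (adjusted p = 0.0255), beside 5.15% of 15514 genes called higher. In 4 members, Mpo, Elane, S100a8 and S100a9, all 4 cilengitide wounds were above all 4 WT wounds. How many of all genes lay apart in this way was not counted. The alarmins missed the threshold at 1.91 ± 0.84 (adjusted p = 0.127) and 2.06 ± 0.82 (adjusted p = 0.101). The secondary granule members overlapped with WT, with log2 differences of 1.54 to 1.67 and adjusted p of 0.310 for Ltf and 0.452 for Ngp. Elane was at least 26.3-fold above the floor of the WT wounds, or 14.9-fold without cilengitide wound 3. The call of Mpo was lost without cilengitide wound 2, 3 or 4 or WT wound 3 or 4. Of other secondary and tertiary granule genes 9 of 14 were higher and of neutrophil surface genes 11 of 24, with 2 lower. Neutrophil markers were higher in 4 of 5, macrophage markers in 4 of 8 and erythroid markers in 3 of 6, and keratinocyte markers in 1 of 10 with 2 lower, and their part was not tested. Summed over each list, neutrophil markers were at 62.7 to 544 CPM with cilengitide and 14.1 to 55.6 in WT wounds, macrophage markers at 699 to 1049 and 168 to 596, and erythroid markers at 55.5 to 168 and 22.7 to 50.3. Keratinocyte sums were 48680 to 87590 and 74490 to 110900 CPM.

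The proportion of the 2 alarmins to each other had a narrower range across wounds than that of granule to alarmin transcripts. S100a9 had 0.915 to 2.13 counts per count of S100a8 in the 23 wounds of the first table and 1.10 to 1.75 in the 12 of the second. The ratio was higher in Col5a1CKO wounds with vehicle (1.49 to 1.75) than in WT wounds (1.10 to 1.45) and cilengitide wounds (1.16 to 1.43). It was also higher in injected wounds (1.92 to 2.09) than in WT wounds at day 14 (0.915 to 1.74). These ranges did not overlap, and no test was run. In the first table the genotypes overlapped at day 14, where Col5a1CKO wounds were at 1.43 to 2.13, a range that holds the injected wounds. They also overlapped at day 19 (Col5a1CKO 1.24 to 1.62, WT 1.38 to 1.48). Together the alarmins took from 0.0358% to 1.75% of all counts in the first table and from 0.00882% to 3.31% in the second. Counts of Ngp, Camp and Ltf per 1000 alarmin counts ran from 0.0782 to 45.3 and from 0.0697 to 77.2.

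Single wounds of 1 group stood at opposite ends. Col5a1CKO wound d at day 14 had 1.11% of its counts in the alarmins and 0.0965 granule counts per 1000 of them. Col5a1CKO wound e had 0.158% in the alarmins and 45.3 granule counts per 1000. With vehicle, Col5a1CKO wound 2 had 0.139% and 77.2 per 1000, whereas wound 4 had 3.31% and 2.77 per 1000. Both orders occurred within the same genotype and day.

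**Figure D5:**
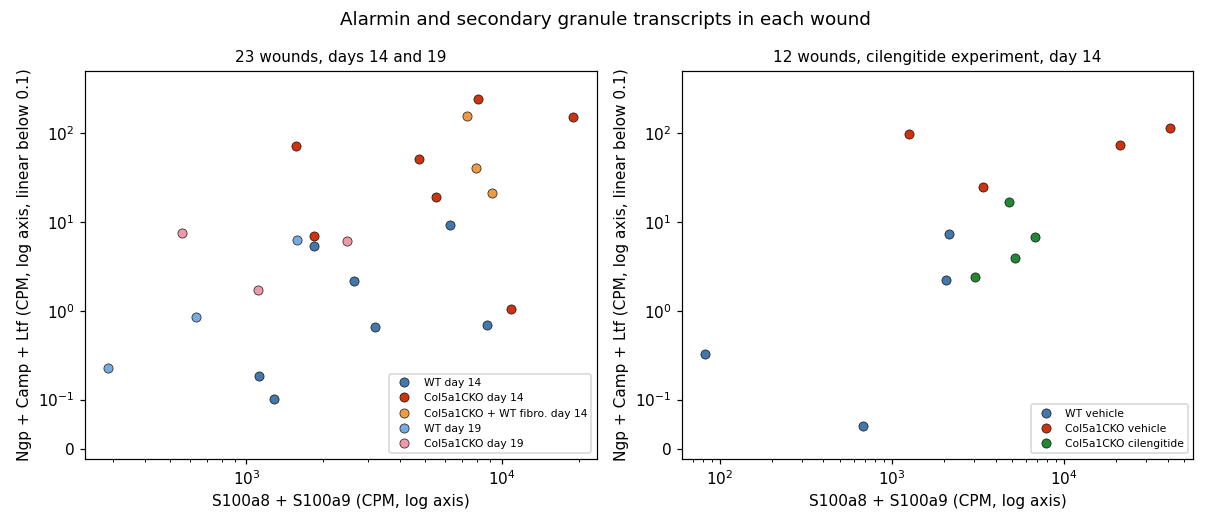
Summed CPM of Ngp, Camp and Ltf against summed CPM of S100a8 and S100a9 in each wound, in the first table (left, 23 wounds) and the cilengitide experiment (right, 12 wounds). Both axes are logarithmic (the y axis linear below 0.1). Wounds at a similar alarmin level can differ widely in granule transcripts. At day 14, WT wound d (0.775% of counts in the alarmins) had 0.0782 granule counts per 1000 alarmin counts. Col5a1CKO wound f (0.887%) had 29.8. Over all wounds on the left, at differing alarmin levels, the range was 0.0782 to 45.3.

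The genes whose levels were most alike S100a8 and Ngp were ranked by Pearson's r of log2(CPM + 1) across wounds, which share genotype, depth and tissue makeup, so r is a description. Over 23 wounds and 14353 genes S100a8 was followed by S100a9 (r = 0.988), the cystine transporter Slc7a11 (0.890), the glycerol kinase Gyk (0.874), Tpd52 (0.869) and the interleukin-1 receptor antagonist Il1rn (0.859). Over the 12 wounds of the second table it was followed by S100a9 (0.996), thrombomodulin (Thbd, 0.949), Trex1 (0.932), Fhl3 (0.929) and A130040M12Rik (0.928), so S100a9 was the only gene in both top 5. Ngp was followed in the first table by Ltf (0.946), Itgb2l (0.921), Rab3c (0.916), the neutrophil surface protein Cd177 (0.907) and Ppp1r3d (0.898). In the second it was followed by Fam45a (0.970), Ccdc104 (0.959), Dirc2 (0.952), Pira6 (0.952) and Ergic2 (0.951), with Ltf at 0.949.

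S100a8 and Ngp themselves had r = 0.566 in the first table and 0.679 in the second. The keratins of activated epidermis, Krt6a, Krt6b and Krt16, had r between -0.179 and -0.079 with S100a8 in the first table and between 0.024 and 0.150 in the second. With Ngp they had r between -0.624 and -0.620 in the first table and between -0.607 and -0.488 in the second.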

How the data were processed

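Wound RNA was sequenced as stranded, single-end libraries. Per the study's methods, the authors aligned reads to mouse NCBI37 with HISAT2 and counted RefSeq exons in SeqMonk, which is not stated to cover the cilengitide libraries. The deposited values are raw counts per gene. Unnamed entries were left out (30 and 1, or 0.0492% and 0.0001% of counts). No 2 libraries held identical counts, and intervals and floors cover counting error only.

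Each pair of groups was fitted within its table with edgeR 4.0.16 in R 4.3.3 (TMM scaling, genes kept by filterByExpr at 10 counts, quasi-likelihood F-test with robust dispersions). RPKM was computed from the deposited lengths. The fits were tested on simulated data. Alternatives were DESeq2 1.42.0, other scalings and filters, 1 fit over all groups, the library set, the replicate letter as a block, and leaving out wounds. Named were all 8 members, up to 4 genes per list with the smallest adjusted p among those called between genotypes at day 14 or with vehicle, and the 5 genes most alike S100a8 and Ngp. List genes under older symbols (Sfpi1 for Spi1) were matched, and Ly6g and Trac were not analysed here. The members and all lists were chosen with earlier results of these data known.

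The main fits left the replicate letters out. For injected against WT wounds the correlations of same-letter deviations were 0.125 to 0.354, so the letters may mark pairs there. Yet injected wound b was more alike a WT wound of another letter. Injected wounds a to c and WT wounds a to c also belonged to different library sets. The blocked fit is therefore given beside the main fit. The library sets come from the gap in GC-dependent levels, 1.58 on the log2 scale beside 0.35 for the next widest, over 11831 genes (97.8% with a GC value).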

Additional observations from a re-analysis of the deposited data

Results flagged for a closer look

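In 6 of 38 groups of 4 to 7 wounds tested, 1 wound lay far from the others by Dixon's test. Chance gives about 1 in 20 for normally distributed values. The CPM tested are skewed to high values and the same wounds recur across genes. The number of flags therefore cannot be set against that rate. All 6 were the highest of their group. At day 14 these were Ngp in WT wound c at 4.002 CPM, and Ltf at 71.7 CPM and Elane at 1.71 CPM in Col5a1CKO wound f. With vehicle they were Camp at 12.3 CPM and Elane at 0.373 CPM in Col5a1CKO wound 2, and with cilengitide Lcn2 at 118 CPM in wound 4. Wound f (day 14) and wound 2 (vehicle) thus each stood apart in 2 granule genes.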

How the results depend on the processing

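Of 1001 values for single members under alternatives, 906 kept direction and side of the threshold, 28 newly passed it, 36 no longer passed it and 31 changed direction. The causes were not tested. For alternatives other than DESeq2, how many of all genes were called was not counted. The number of members called changed by over 1.5 times as follows. For Col5a1CKO against WT at day 14, the lower library set gave 1 in place of 3, and all 14 fits without 1 wound (chosen after seeing the data) gave 3. For injected wounds against WT, all groups in 1 fit gave 5, the library set as a covariate 6, the upper set 6, and leaving out 1 injected wound 1 to 2, in place of 3. For day 19 against day 14, DESeq2 gave 2 (WT) and 6 (Col5a1CKO) and 1 fit over all groups 1 (WT, Ltf, higher at day 19), in place of 0. For the vehicle comparison, leaving out 1 wound gave 3 to 6 in place of 6. For cilengitide against vehicle in Col5a1CKO, DESeq2 gave 4 and leaving out 1 wound 1 to 2 in place of 1. For cilengitide against WT, DESeq2 gave 2, every gene with a count 2, and leaving out 1 wound 0 to 2 in place of 1. For the change of the genotype difference between days, DESeq2 gave 1 in place of 0.

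With the replicate block, 2 members were called at day 14 (Lcn2 and Ltf, with Ngp at an adjusted p of 0.0648), 2 for injected wounds against WT (Lcn2 at 0.155) and 0 in the other blocked comparisons. In no main fit were the letters taken as pairing. Same-letter correlations ran from -0.374 to 0.460 at day 14 and from -0.412 to -0.319 at day 19. For injected against other Col5a1CKO wounds they ran from -0.164 to 0.318. No paired analysis was possible in the cilengitide experiment, because its titles number no wounds across groups.

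No value that changed direction had passed the threshold. For injected against other Col5a1CKO wounds, the covariate and the upper set gave 0.33 and 0.39 for S100a8, 0.29 and 0.33 for Lcn2, -0.96 and -0.89 for Camp, and -0.97 and -0.90 for Ltf (log2). The block gave 0.29 for S100a8 and 0.95 for Ngp, and scaling by library size alone 0.0721 for S100a8. Without 1 injected wound, values ran from -0.12 to 0.0044 for S100a8, -0.52 to 0.16 for Lcn2, -1.34 to 0.75 for Camp, -1.38 to 0.0417 for Ngp, -1.23 to 0.63 for Ltf, -1.23 to 1.87 for Elane and -0.75 to 1.56 for Mpo, turned by the absence of wound c (of wound b for Ngp, and also of wound a for Lcn2). At day 19, Mpo was -0.28 by library size alone and -0.28 to 0.41 without 1 wound, and Ltf -0.10 to 3.10. In WT over time, the covariate and the upper set gave 0.74 and 0.74 for Lcn2, the covariate 3.17 for Camp, and Ngp ran from -3.72 to 0.96 without 1 wound. The change of the genotype difference ran from -0.88 to 0.66 for S100a8 and from -1.11 to 0.58 for S100a9 without 1 day 19 wound. Library size alone moved the median of all genes from -0.03 to 0.13 (day 14), from -0.01 to -0.39 (day 19), from 0.03 to 0.16 (injected against WT) and from 0.00 to 0.43 (WT over time). Counts under 3 in single WT wounds limit Elane, Camp, Ltf, Ngp and Mpo. Bounds for Elane without single wounds were chosen after seeing the data.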
